A study of Mus musculus with 25 samples.

Results

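Mitochondrial ribosomal protein genes were followed across sorted group 1 innate lymphoid cells (G1-ILCs) of the mouse. They were taken as the rows of the count table whose symbol is protein coding and starts with Mrpl or Mrps followed by a digit, which gave 78 genes of 46078 rows. Of these, 26 encode proteins of the small subunit of the mitochondrial ribosome and 51 proteins of the large subunit. The remaining one, Mrps36, kept a ribosomal name although its product is known as a component of the alpha-ketoglutarate dehydrogenase complex. The symbol does not always name the subunit, since the products of Mrps18a and Mrps30 sit in the large subunit, where they were counted. By textbook homology, 48 members have counterparts in bacterial ribosomes and 29 are specific to mitochondria.

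RNA was measured in 25 libraries of wild type C57BL/6 mice, and all cells were sorted as CD3- NK1.1+ NKp46+. FL G1-ILCs (4 libraries) came from fetal liver at E18.5 and, by the labels, had intermediate CD49a and CD49b. All other groups came from mice of 8 weeks. LPL ILC1s (4) were CD27+ IL-7R+ cells of the small intestinal lamina propria, and SG G1-ILCs (2) were CD49a+ CD49b+ cells of the salivary glands. BM iILC1s (3), immature ILC1s of the bone marrow, were CD49a+ with low CD49b. AL 7R+ ILC1s (3) and AL 7R- ILC1s (4) had the same 2 markers in the adult liver and were split by the interleukin-7 receptor. BM NK cells (3) and AL NK cells (2) were CD49a- CD49b+ cells of bone marrow and adult liver. The labels name the fetal liver and salivary gland cells only as group 1 ILCs. The summed level of an NK marker list was 53.5 to 68.7 CPM in FL G1-ILCs and 1082 to 1186 CPM in SG G1-ILCs, against 3070 to 3924 CPM in the NK cells of marrow and liver. All adult liver groups were used as references in more than one comparison, so the comparisons are not independent of each other.

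The libraries held 2302643 to 7995906 counts (median 4603579), of which the members took 0.246% to 0.499%. FL G1-ILCs replicates 2 and 3 differed by little more than sampling noise (their chi-square was 1.18 per degree of freedom, and that of the other 28 replicate pairs 3.51 to 12.4), so they were summed and counted as 1 sample, which left 24 samples. Eomes and Il7r were read beside the sort. Mean Eomes, the transcription factor of NK cells, was 506.5 and 472.0 CPM (counts scaled to a fixed library size) in BM and AL NK cells. Elsewhere it was at most 51.3 CPM, except 199.5 CPM in SG G1-ILCs. The NK marker list summed to 393.8 to 556.6 CPM in BM iILC1s, against 28.1 to 34.9 CPM in AL 7R+ ILC1s. Markers of other cell types were also present in some groups and are given with some of the comparisons below. T cell markers summed to 3072 to 3694 CPM in AL 7R- ILC1s, 1368 to 1425 in AL 7R+ ILC1s and 496 to 546.8 in AL NK cells. Myeloid markers summed to 124.6 to 1471 CPM in BM iILC1s, against 3.31 to 10.5 CPM in AL 7R+ ILC1s. The erythroid list reached 414.5 CPM in AL 7R- ILC1s replicate 3. What these markers contribute to the member levels was not tested. Mean Il7r was 541.2 CPM in AL 7R+ ILC1s, against 1.71 CPM in AL 7R- ILC1s. Levels below are CPM scaled by trimmed means (TMM). A member was called where the adjusted p of edgeR's quasi-likelihood test, over all 14123 genes tested, was under 0.05. Fewer cells of a type and less RNA per cell cannot be told apart in such sorted bulk samples.

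Mitochondrial ribosomes translate the few messenger RNAs of the mitochondrial genome, all of which encode subunits of the respiratory chain and ATP synthase. Their 2 ribosomal RNAs come from mitochondrial DNA, while every one of their proteins is encoded in the nucleus, made in the cytosol and imported. As general background, supply of these proteins accompanies the building of mitochondria in growing and dividing cells, and lymphocytes are known to enlarge it on activation.

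Promoters of nuclear genes for mitochondrial proteins are known for sites of the ETS family (which includes GABP), NRF1 and YY1. RefSeq promoter windows of assembly GRCm38.p6, each of 300 bases from 250 before to 50 after the start, were found for 69 of the 78 members. The letters CCGGAAG, an ETS motif, occurred on either strand in 26 of the 69 members (37.7%), against 9.93% of 27025 genes in the table. The NRF1 motif GCGCATGCG occurred in 7 members (10.1%), against 1.95% of all genes, and the YY1 motif AAGATGG in 13 members (18.8%), against 7.28%. At least 1 of the 3 motifs was present in 38 members (55.1%), against 17.8% of all genes. GCGCATGCGC reads as the NRF1 motif on both strands, and the ETS and YY1 motifs can share the letters AAG. The member windows were also richer in G and C, with a median of 58.7% against 52.7% and 21 CG dinucleotides against 7. Genes of the cytosolic ribosome, with any motif in 58.9% of 56 genes, had about the same share.

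The windows of 6 members that carry the results below are shown because between them they hold each motif, or lack all 3. The capitals mark the motif. Mrpl17 (chr7:105811038-105811337, minus strand) has an ETS motif that begins 237 bases before the start and an NRF1 motif that begins 11 bases before it. Mrpl42 (chr10:95501900-95502199, minus strand) has a YY1 motif after the start. In Mrpl51 (chr6:125191950-125192249, plus strand) and Mrps22 (chr9:98601630-98601929, minus strand) an ETS motif begins 90 and 11 bases before the start. Mrpl9 (chr3:94443086-94443385, plus strand) has the NRF1 motif on both strands, and Mrps6 (chr16:92058086-92058385, plus strand) has none of the 3.
Mrpl17: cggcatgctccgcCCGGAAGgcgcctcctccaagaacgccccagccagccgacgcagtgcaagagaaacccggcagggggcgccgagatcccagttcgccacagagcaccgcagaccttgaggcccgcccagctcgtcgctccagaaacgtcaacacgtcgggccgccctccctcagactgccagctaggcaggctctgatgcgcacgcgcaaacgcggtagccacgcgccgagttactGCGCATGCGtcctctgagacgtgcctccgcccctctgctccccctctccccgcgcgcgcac
Mrpl42: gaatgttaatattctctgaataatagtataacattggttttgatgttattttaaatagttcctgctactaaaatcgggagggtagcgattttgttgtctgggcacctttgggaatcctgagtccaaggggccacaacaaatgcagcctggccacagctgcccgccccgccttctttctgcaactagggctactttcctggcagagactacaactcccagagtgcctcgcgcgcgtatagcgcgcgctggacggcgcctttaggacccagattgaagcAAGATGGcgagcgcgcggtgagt
Mrpl51: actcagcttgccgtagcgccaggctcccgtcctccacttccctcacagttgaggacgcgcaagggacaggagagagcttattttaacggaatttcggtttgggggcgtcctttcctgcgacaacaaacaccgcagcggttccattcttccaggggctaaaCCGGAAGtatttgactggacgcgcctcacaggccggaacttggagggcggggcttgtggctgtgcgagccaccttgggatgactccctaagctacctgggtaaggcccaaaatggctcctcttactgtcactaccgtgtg
Mrps22: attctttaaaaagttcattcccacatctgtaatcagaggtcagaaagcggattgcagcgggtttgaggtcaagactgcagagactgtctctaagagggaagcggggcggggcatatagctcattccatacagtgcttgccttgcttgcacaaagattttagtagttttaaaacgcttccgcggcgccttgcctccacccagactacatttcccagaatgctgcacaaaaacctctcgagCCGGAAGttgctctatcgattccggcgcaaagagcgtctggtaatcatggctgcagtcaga
Mrpl9: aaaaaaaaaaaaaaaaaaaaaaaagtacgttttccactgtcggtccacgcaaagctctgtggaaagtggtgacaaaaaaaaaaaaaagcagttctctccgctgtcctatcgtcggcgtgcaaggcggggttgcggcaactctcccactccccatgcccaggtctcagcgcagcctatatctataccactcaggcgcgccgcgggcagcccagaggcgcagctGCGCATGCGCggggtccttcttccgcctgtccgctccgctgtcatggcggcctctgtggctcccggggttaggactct
Mrps6: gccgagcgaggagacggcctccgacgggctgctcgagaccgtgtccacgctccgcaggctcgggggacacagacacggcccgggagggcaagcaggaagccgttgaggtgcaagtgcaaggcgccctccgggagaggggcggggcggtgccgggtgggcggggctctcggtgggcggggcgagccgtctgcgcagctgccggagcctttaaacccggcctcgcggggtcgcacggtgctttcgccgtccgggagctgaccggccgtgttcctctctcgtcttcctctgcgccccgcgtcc

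Of the 78 members, 77 passed the filter on low counts. The exception was Mrpl53 (chr6:83109040-83109939), with 5 counts over all libraries, and 695 of its exon bases are shared with the same-strand gene Gm42688, so its low count may be one of assignment. The others had a median level of 41.5 CPM. On levels per kb of transcript (median length of the protein-coding transcripts), Mrpl4 was highest at 158 CPM per kb, followed by Mrpl33 at 150.1 and Mrps21 at 121 CPM per kb, and Mrpl47 (4.3) and Mrps25 (4.51) were the lowest members that passed the filter. This order rests on the length used, since with all annotated exons as the length, an alternative chosen after seeing the data, Mrpl33 had 9.8 CPM per kb and Mrpl4 49.1, and Mrps21 led at 66.3.

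The summed level of the members set FL G1-ILCs apart from every other group. Their 3 samples had 5095, 5048 and 5040 CPM, whereas the highest of the 21 adult samples had 3612 CPM. The groups averaged 5061 ± 29.7 CPM in FL G1-ILCs (SD, n = 3), 3320 ± 219.7 in LPL ILC1s (n = 4), 2887 ± 191.7 in SG G1-ILCs (n = 2), 3057 ± 21.04 in BM iILC1s (n = 3) and 3074 ± 79.3 in AL 7R+ ILC1s (n = 3). The mean of AL 7R- ILC1s was 3256 ± 146.1 CPM (n = 4), while BM NK cells had 3359 ± 173.5 CPM (n = 3) and AL NK cells 3081 ± 107.3 CPM (n = 2). Ordered by mean, neighbouring adult groups overlapped in their samples, except that both SG samples lay below the 3 BM iILC1 samples (3036 to 3078 CPM). Both subunits took part, with small subunit sums of 1551 ± 13.3 CPM in FL G1-ILCs and group means of 890.5 to 1068 CPM elsewhere, and large subunit sums of 3478 ± 17.7 CPM in FL G1-ILCs and 1980 to 2284 CPM elsewhere. The ratio of the large to the small subunit sum stayed between 2.08 and 2.29 in all 8 groups.

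**Figure D1:**
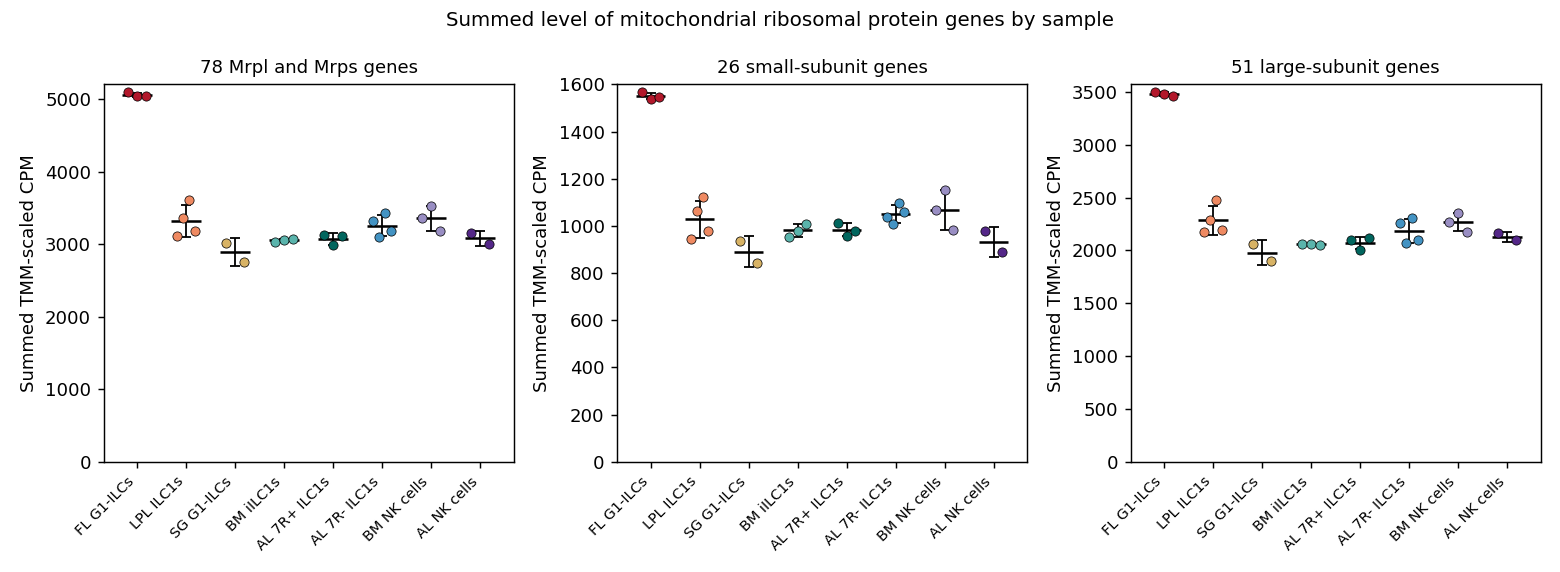
Summed level of the members in each of the 24 samples by group, on the CPM scale (TMM), with points for samples, a line for the group mean and bars for the SD. The 3 FL G1-ILC samples lie between 5040 and 5095 CPM, above all adult samples, the highest of which has 3612 CPM.

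Single members followed the sum. FL G1-ILCs had the highest group mean for 67 of the 77 members, LPL ILC1s for 8, and SG G1-ILCs and AL 7R+ ILC1s for 1 each. The lowest group mean was most often in SG G1-ILCs (26 members) or LPL ILC1s (19). For these counts of highest and lowest means the share of all genes was not computed, so they are descriptions only. All 3 FL samples lay above all 21 other samples for 48 members, in a background of 11.2% of all genes tested, and below all of them for 0 members, against 4.21% of all genes. A difference somewhere among the 8 groups was called for 72 of the 77 members, a larger share than the 77.7% of all genes. The 5 that were not called were Mrpl10, Mrps5, Mrpl14, Mrpl44 and Mrpl24. Mrpl24 had the smallest spread, with a ratio of the highest to the lowest group mean of 1.14. The largest was that of Mrps6 at 5.01, and the median over the members was 2.14.

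**Figure D2:**
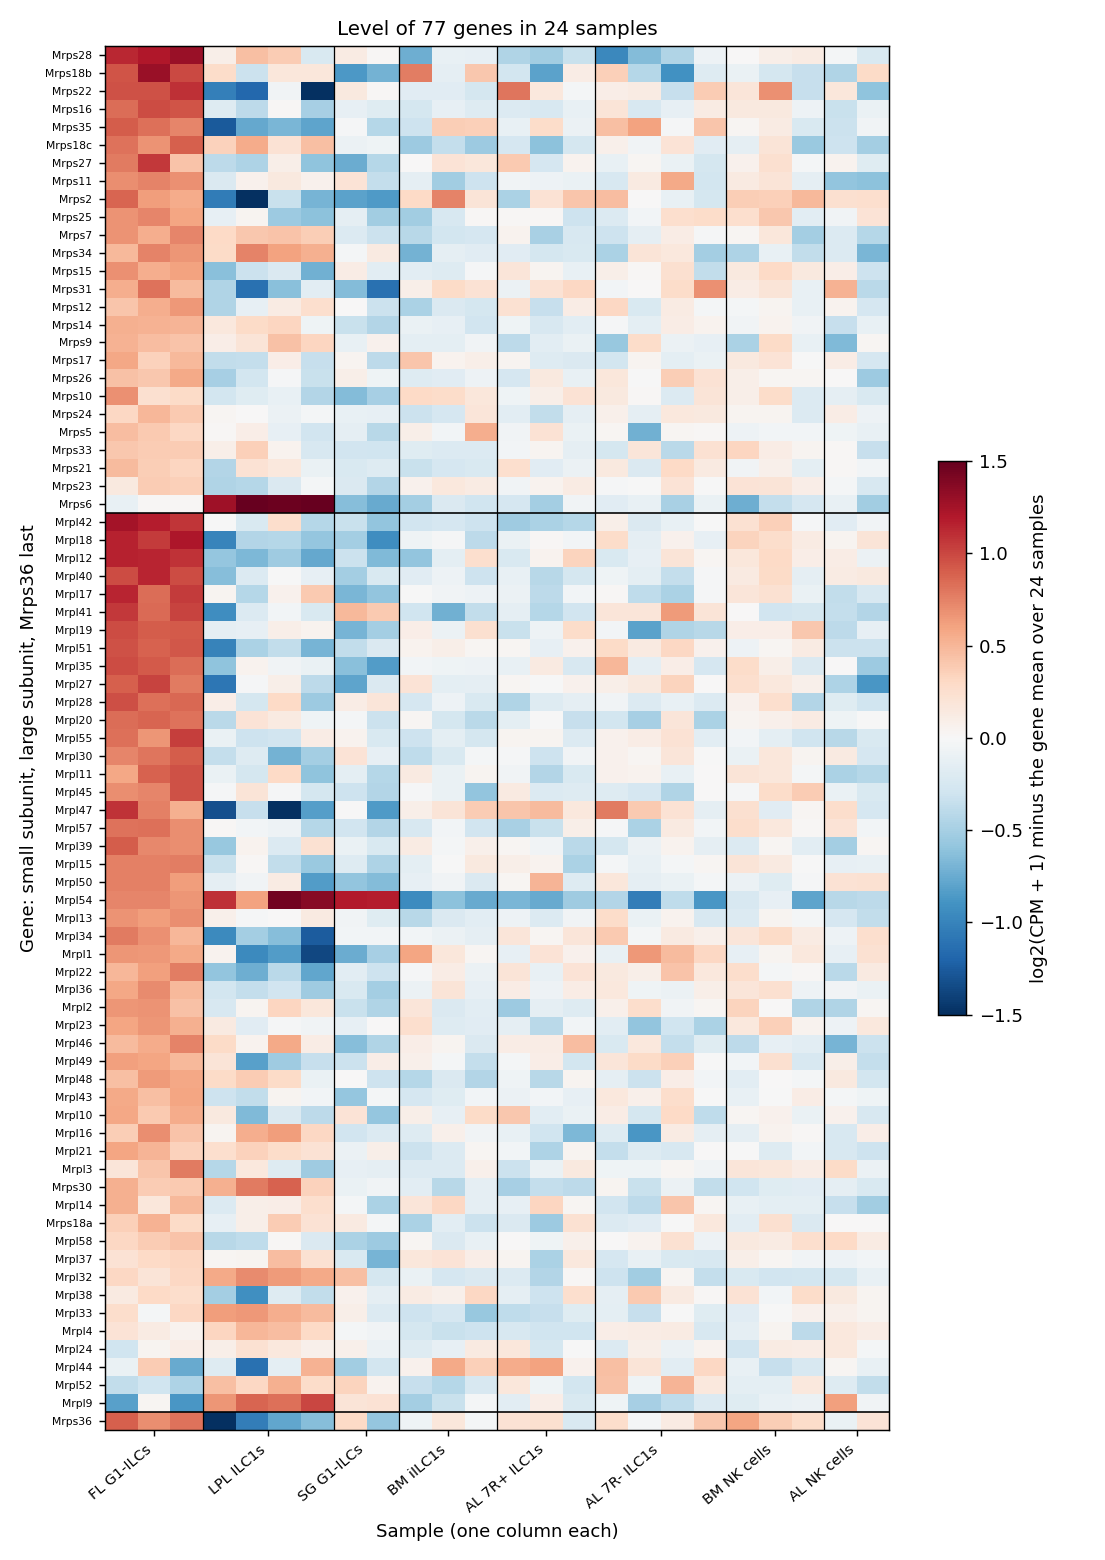
Each of the 77 members (rows, by subunit, Mrps36 last) in each of the 24 samples (columns, by group) as log2(CPM + 1) minus the mean of that gene over all samples. Most rows are highest in the 3 FL G1-ILC columns, and LPL ILC1s and SG G1-ILCs hold both high and low rows.

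To ask how fetal and adult liver cells differ, FL G1-ILCs were set against AL 7R- ILC1s. Of the 77 members, 59 were higher and 1 was lower in FL G1-ILCs, whereas 22.4% of all genes tested were higher and 20.1% lower. The median log2 fold change of the members was 0.62 and that of all genes -0.06. The small subunit had 20 of 26 members higher, and the large subunit 39 of 50 higher and 1 lower. The summed level was 1.55-fold that of AL 7R- ILC1s.

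Mrpl42 (chr10:95480805-95501940), a mitochondria-specific protein of the large subunit, had 177, 168 and 157 CPM in FL G1-ILCs, against 78.5, 63.4, 68.1 and 73.6 CPM in AL 7R- ILC1s. The groups did not overlap, and the log2 fold change was 1.24 ± 0.13 (SE; adjusted p = 1.8e-08). Its promoter above carries the YY1 motif.

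Mrps28 (chr3:8802146-8923918), a small subunit protein related to bacterial S1, had the largest change. It had 38.4, 40.4 and 43.2 CPM in FL G1-ILCs, against 8.2, 10.4, 12.2 and 16.1 CPM in AL 7R- ILC1s (log2 fold change 1.79 ± 0.23, adjusted p = 4.1e-07). The lowest fetal sample was above every adult sample of the table.

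Mrpl12 (chr11:120484613-120489065) encodes the L7/L12 protein of the stalk, where translation factors dock. It had 63.6, 63.2 and 60.9 CPM in FL G1-ILCs, against 23.9, 25.8, 32.3 and 28.6 CPM in AL 7R- ILC1s (log2 fold change 1.18 ± 0.19, adjusted p = 1.1e-05), and no adult sample of any group was above 35.6 CPM. Mrpl18 (chr17:12911349-12916345), which binds 5S ribosomal RNA in bacteria, had 182, 169 and 189 CPM in FL G1-ILCs, against 97.9, 73.7, 84.8 and 74.1 CPM in AL 7R- ILC1s (1.12 ± 0.13, adjusted p = 1.4e-07). Mrpl51 had 104, 98.7 and 102 CPM in FL G1-ILCs, against 64.9, 58.3, 66.3 and 55.8 CPM in AL 7R- ILC1s (0.73 ± 0.13).

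Further large rises were those of Mrps18b (1.44 ± 0.33), Mrpl54 (1.42 ± 0.21) and Mrpl19 (1.38 ± 0.17). Mrps18b was low in all groups and lies opposite to Gm16279 over 638 exon bases, and Mrpl19 lies opposite to Gcfc2 over 1962, so part of their counts may belong to those genes. The 3 paralogs of bacterial S18 all rose, Mrps18c by 0.79 ± 0.17 and Mrps18a by 0.45 ± 0.18 on the log2 scale, and scaling by relative log expression (RLE) in place of TMM ended the call of Mrps18a. Also higher were Mrps22 (0.97 ± 0.32), Mrps34 (0.81 ± 0.28), Mrps30 (0.62 ± 0.15), Mrps12 (0.49 ± 0.17) and Mrpl58 (0.32 ± 0.12), the last encoding a peptidyl-tRNA hydrolase that rescues stalled ribosomes. Mrps34 shares 763 exon bases with the same-strand gene Nme3 and lies opposite to Mapk8ip3 over 1309, so its counts are less certain. The call of Mrpl58 was lost with RLE. Some of these calls also rested on single libraries. That of Mrps22 ended without AL 7R- ILC1s replicate 3 (0.84), that of Mrps34 without AL 7R- ILC1s replicate 1 or 4 or FL G1-ILCs replicate 2+3 or 4 (0.64 to 0.79), and that of Mrps12 without AL 7R- ILC1s replicate 2 or 4 or FL G1-ILCs replicate 2+3 or 4 (0.40 to 0.49). Mrps18a lost its call without AL 7R- ILC1s replicate 1, 2 or 3 or FL G1-ILCs replicate 1 or 2+3 (0.35 to 0.48), and Mrpl58 without AL 7R- ILC1s replicate 1, 2 or 4 or FL G1-ILCs replicate 2+3 or 4 (0.24 to 0.32).

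The 1 member that fell was Mrpl52, with 23.9, 25.2 and 22.4 CPM in FL G1-ILCs, against 42.5, 29.8, 44.7 and 34.9 CPM in AL 7R- ILC1s (-0.67 ± 0.18, adjusted p = 0.0032). Mrpl24 gave the largest p, with 41, 52.2 and 54.3 CPM in FL G1-ILCs and 43.7, 53.8, 47.7 and 52.5 CPM in AL 7R- ILC1s (-0.01 ± 0.15, adjusted p = 0.97). Mrps36, the member outside the ribosome, had 0.63 ± 0.26 and did not pass (adjusted p = 0.05041).

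Against AL NK cells the picture was alike, with the same fetal samples on one side. Of the 77 members, 53 were higher and 1 was lower in FL G1-ILCs (19.8% and 16.6% of all genes), with a median log2 fold change of 0.75 (all genes 0.03). The largest rises were those of Mrpl27 (1.6 ± 0.27), Mrpl41 (1.4 ± 0.22), Mrps28 (1.39 ± 0.28), Mrps11 (1.36 ± 0.25) and Mrpl17 (1.34 ± 0.22). Mrpl17 (chr7:105803206-105811099), the neighbour of the peptide exit in bacteria, had 91.3, 73.9 and 85.4 CPM in FL G1-ILCs, against 31.4 and 34.5 CPM in AL NK cells, with no overlap. Mrps11 and Mrpl46 are transcribed away from each other and share 173 exon bases, so their counts are not fully separate.

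The 1 member lower against AL NK cells was Mrpl9 (-0.82 ± 0.23, adjusted p = 0.0057), with 30.1, 54.8 and 28.9 CPM in FL G1-ILCs and 82.4 and 51.8 CPM in AL NK cells. These groups overlapped, and without AL NK cells replicate 1 no member was lower. Mrpl4 had the largest p (log2 fold change 0.00 ± 0.13, adjusted p = 0.99).

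**Figure D3:**
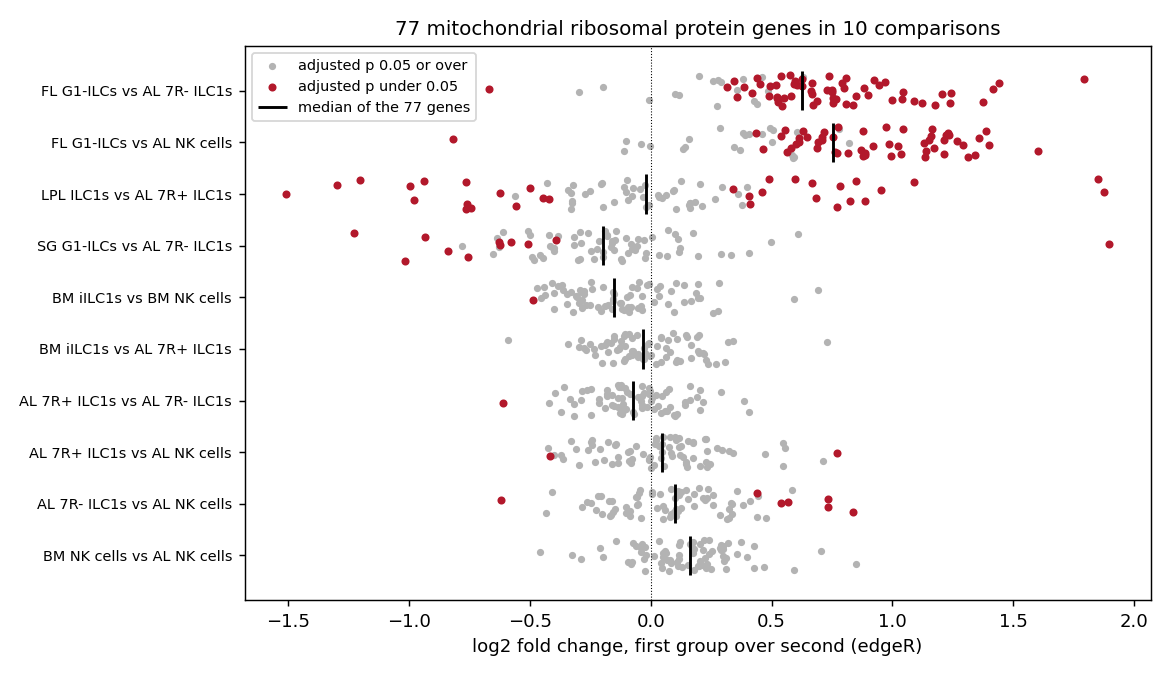
Log2 fold change of each of the 77 members in the 10 comparisons of 2 groups (first-named group over second), with red points for an adjusted p under 0.05 and a black tick at the median. The medians are 0.62 and 0.75 in the 2 comparisons of FL G1-ILCs and lie between -0.20 and 0.16 in the others.

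Lists for the rest of mitochondrial gene expression were read beside the members. Of these, 12 of the 13 mRNAs from mitochondrial DNA and 82 of the 89 nuclear subunits of oxidative phosphorylation passed the filter. In FL G1-ILCs against AL 7R- ILC1s, cytosolic ribosomal proteins had 71 of 76 genes higher and 0 lower (median log2 fold change 0.93), and nuclear subunits of oxidative phosphorylation (OXPHOS) 62 of 82 higher and 2 lower (0.61). Of the 12 mRNAs from mitochondrial DNA that were tested, 9 were higher, and neither of the 2 mitochondrial ribosomal RNAs was called. Mitoribosome assembly factors were divided, with 4 of 24 higher and 4 lower (median -0.01). Translation factors had 7 of 16 higher and 1 lower, and mitochondrial tRNA synthetases 6 of 20 higher. C1qbp, an RNA-binding matrix protein needed for mitochondrial translation, had 176.0 ± 8.9 CPM in FL G1-ILCs (SD, n = 3) and 52.2 ± 3.5 in AL 7R- ILC1s (n = 4), giving a log2 fold change of 1.75 ± 0.16. Of 5 mitoribosomal proteins with other names, Gadd45gip1 (0.74 ± 0.21) and Chchd1 (0.64 ± 0.15) were higher. Set against AL NK cells, FL G1-ILCs had 70 of 76 cytosolic ribosomal protein genes and 66 of 82 OXPHOS genes higher and 0 lower, and both ribosomal RNAs were then higher too (mt-Rnr1 1.74, mt-Rnr2 1.52).

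Of 13 regulators of mitochondrial biogenesis, 7 were higher in FL G1-ILCs, among them Myc (1.48 ± 0.12), the PGC-1-related coactivator Pprc1 (1.31 ± 0.26), Nrf1 (0.71 ± 0.11) and Tfam (0.63 ± 0.18), the packaging factor of mitochondrial DNA. All 21 cell cycle genes were higher as well, with a summed level of 8142 to 8970 CPM in FL G1-ILCs and 671 to 844.6 CPM in AL 7R- ILC1s, and the part of cycling in the member levels was not tested. The cells' own ILC1 markers were lower in 4 of 5 genes (617 to 712 CPM in FL G1-ILCs, against 1882 to 2312 CPM in AL 7R- ILC1s), and T cell markers in 4 of 10 (2407 to 2715 CPM, against 3072 to 3694 CPM, Cd5 at 0 in FL G1-ILCs), most of them reads of Cd3g, Trbc1 and Trbc2. The erythroid list had 2 of 7 genes higher, with sums of 26.4 to 199 CPM in FL G1-ILCs and 0.503 to 414.5 CPM in AL 7R- ILC1s, the myeloid list 3 of 7 higher (23.3 to 194.7 CPM, against 10.7 to 28.9 CPM, Elane at 0 in FL G1-ILCs), and the hepatocyte list reached at most 8.26 CPM in any sample. Their part was not tested. With members split by promoter, the median log2 fold change was 0.55 in the 37 with any of the 3 motifs and 0.62 in the 31 without.

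**Figure D4:**
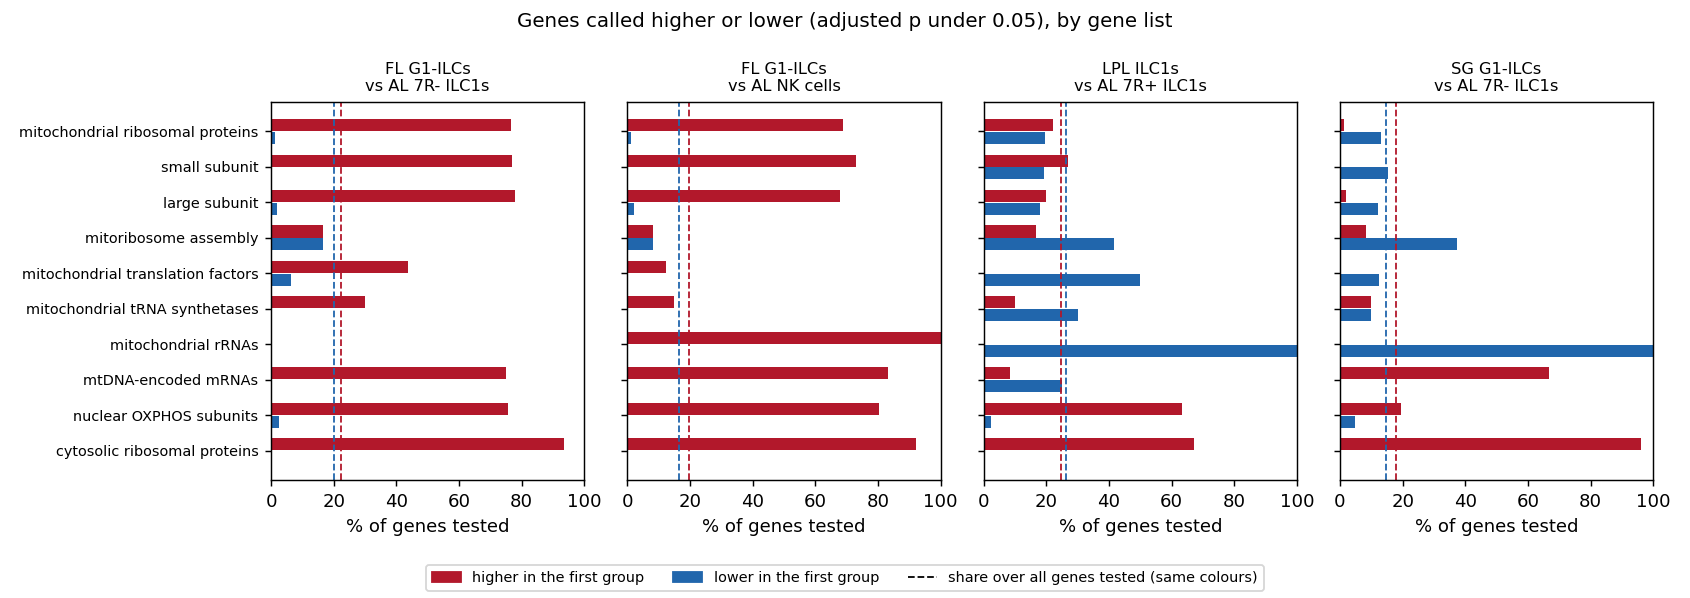
Percent of each gene list called higher (red) and lower (blue) in 4 comparisons, with dashed lines at the share of all genes tested. The members and the cytosolic ribosomal proteins are mostly higher in the 2 comparisons of FL G1-ILCs, and in LPL ILC1s and SG G1-ILCs the cytosolic list is again mostly higher while the members are not.

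In LPL ILC1s against AL 7R+ ILC1s, which compares cells of 2 tissues that share the interleukin-7 receptor, the members moved in both directions. By the paper's methods, small intestines and salivary glands were digested with enzymes, while livers were dissociated mechanically. Tissue and cell preparation therefore cannot be told apart here or in the comparison of SG G1-ILCs with AL 7R- ILC1s. Of the 77 members, 17 were higher and 15 lower in LPL ILC1s, against 24.8% and 26.2% of all genes, so the shares were near the background. Their median log2 fold change was -0.02, as in all genes (-0.02). The summed level was 1.08-fold by TMM. This ratio turned with the scaling, since plain library totals gave 2589 CPM in LPL ILC1s and 3321 CPM in AL 7R+ ILC1s. LPL libraries had TMM factors of 0.775 to 0.797, against 1.08 to 1.09 in AL 7R+ ILC1s, and their 10 most abundant genes took 7.65% to 8.32% of counts.

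The highest rises were those of Mrpl54 and Mrps6. Mrps6 (chr16:92058270-92112227), the homolog of bacterial S6, had 52.2, 71.4, 60.2 and 70.4 CPM in LPL ILC1s, against 17.5, 14.6 and 20.4 CPM in AL 7R+ ILC1s (1.85 ± 0.20), and no sample of the other groups was above 21.4 CPM. Only the LPL samples were high, but 464 of its exon bases are shared with the same-strand genes Slc5a3 and Gm49711, and which gene the extra counts came from was not tested. Mrpl54 (chr10:81264713-81266934) had 59.2, 41.6, 75.2 and 71.5 CPM in LPL ILC1s, against 16.5, 15.7 and 18.3 CPM in AL 7R+ ILC1s (1.87 ± 0.22).

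Mrps30 had 61.8, 73.7, 79 and 54 CPM in LPL ILC1s, against 29.7, 32.9 and 32 CPM in AL 7R+ ILC1s (1.09 ± 0.15). Mrpl9, with the NRF1 motif on both strands, had 85.7, 99, 95.6 and 109 CPM in LPL ILC1s, against 47.9, 57.6 and 45.5 CPM in AL 7R+ ILC1s (0.95 ± 0.19) without overlap. Its group mean was the highest of the 8 in LPL ILC1s and the lowest in FL G1-ILCs. Mrpl33 (0.89 ± 0.13), Mrps34 (0.85 ± 0.29) and Mrps18c (0.78 ± 0.18) also rose, of which Mrps34 shares 763 exon bases with the same-strand gene Nme3.

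On the other side stood Mrpl47 (-1.51 ± 0.34), Mrps22 (-1.30 ± 0.34), Mrps36 (-1.20 ± 0.28), Mrps2 (-0.99 ± 0.26) and Mrpl34 (-0.98 ± 0.18). Mrps22 (chr9:98588730-98601660), a mitochondria-specific protein of the small subunit, had 5.83, 5.16, 12.4 and 3.6 CPM in LPL ILC1s, against 23.3, 14.6 and 12.7 CPM in AL 7R+ ILC1s, and its highest LPL sample lay just below the lowest AL 7R+ one. Mrpl12 was also lower, with 18.4, 17.2, 19.1 and 16.1 CPM in LPL ILC1s, against 23.7, 29.1 and 35.6 CPM in AL 7R+ ILC1s (-0.74 ± 0.20, adjusted p = 0.0028). Large subunit members were thus called in both directions, and Mrpl19 had the largest p (-0.01 ± 0.17). Mrpl47 lies opposite to Actl6a and Ndufb5 over 1068 exon bases and Mrps36 has 3 named pseudogenes, so their counts are less certain.

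The lists split in the same tissue. Cytosolic ribosomal proteins had 51 of 76 genes higher and 0 lower, and OXPHOS subunits 52 of 82 higher and 2 lower. Mitoribosome assembly factors had 4 of 24 higher and 10 lower, translation factors 0 of 16 higher and 8 lower, tRNA synthetases 2 of 20 higher and 6 lower, and both mitochondrial ribosomal RNAs were lower (mt-Rnr1 -1.10 ± 0.24, mt-Rnr2 -1.13 ± 0.18). Tufm, the mitochondrial elongation factor Tu, had 34.7 ± 8.0 CPM in LPL ILC1s (SD, n = 4) and 72.3 ± 3.0 in AL 7R+ ILC1s (n = 3). The assembly factors Malsu1 (1.78 ± 0.16) and Ddx28 (1.98 ± 0.20) rose, while Mrm2, a methyltransferase of the large ribosomal RNA, fell by 3.88 on the log2 scale. Of the regulators, 5 of 13 were higher and 5 lower. Myc had 2145 ± 287.5 CPM in LPL ILC1s and 170.6 ± 10.5 in AL 7R+ ILC1s, and Gabpb1, a GABP subunit, 709.8 ± 47.3 CPM in LPL ILC1s and 82.2 ± 10.1 CPM in AL 7R+ ILC1s. Members with an ETS motif had a median log2 fold change of -0.07 (25 members) and those without 0.03 (43). The other 2 motifs went the other way, with 0.21 (7 members) against -0.04 (61) for NRF1 and 0.20 (13) against -0.07 (55) for YY1. These splits were not tested. The ILC3 marker list had 2 of 3 genes higher, with sums of 33.0 to 239.8 CPM in LPL ILC1s and 4.33 to 7.49 CPM in AL 7R+ ILC1s, and the epithelial list 2 of 3 (55.4 to 116.4 CPM, against 18.2 to 24.5 CPM). The T cell list had 7 of 10 higher and 2 lower (1398 to 1610 CPM, against 1368 to 1425 CPM). Their part was not tested.

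In SG G1-ILCs against AL 7R- ILC1s, members leaned lower. Of the 77, 1 was higher and 10 were lower in SG G1-ILCs, against 17.8% and 14.6% of all genes, so fewer members than genes overall were called higher and about as many lower. DESeq2 gave 3 higher and 11 lower. The median log2 fold change was -0.20 (all genes -0.03), and the summed levels of 3023 and 2752 CPM in SG G1-ILCs lay below those of 3315, 3097, 3429 and 3182 CPM in AL 7R- ILC1s.

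The 1 that rose was Mrpl54, with 62.9 and 62.4 CPM in SG G1-ILCs, against 19.6, 12.6, 20.5 and 14.3 CPM in AL 7R- ILC1s (1.90 ± 0.23, adjusted p = 2.2e-07). This gene was therefore high in FL G1-ILCs, LPL ILC1s and SG G1-ILCs and at or below 24.8 CPM in every sample of the other 5 groups. The lower members were led by Mrps31 (-1.23), Mrpl1 (-1.01), Mrps2 (-0.93), Mrpl35 (-0.84) and Mrpl18 (-0.75). Mrpl18 had 56.4 and 41.7 CPM in SG G1-ILCs, against 97.9, 73.7, 84.8 and 74.1 CPM in AL 7R- ILC1s. Mrpl1, which by homology forms the L1 stalk at the tRNA exit site, had 18.1 and 21.5 CPM in SG G1-ILCs, against 28.6, 49, 43.3 and 38.4 CPM in AL 7R- ILC1s. Mrps6 had 13.2 and 12.1 CPM in SG G1-ILCs, against 18.6, 19.4, 14.8 and 19.6 CPM in AL 7R- ILC1s, and was not called.

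Mrpl1, Mrpl18, Mrpl51, Mrps2 and Mrps31 were lower in both comparisons, which is 33.3% of the 15 lower in LPL ILC1s and 50% of the 10 lower in SG G1-ILCs. Over all genes tested the shares were 35.4% and 63.5%, so the overlap of the members was not above that background. Each of the 5 lost its call in SG G1-ILCs without 1 of the 2 SG replicates, and in LPL ILC1s Mrpl1 lost it without LPL ILC1s replicate 4, and Mrps31 without LPL ILC1s replicate 2 or AL 7R+ ILC1s replicate 2 or 3. With only 2 samples in SG G1-ILCs, the call count fell to 5 without either replicate 1 or replicate 2 of SG G1-ILCs.

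Cytosolic ribosomal proteins went the other way in the salivary glands, with 73 of 76 genes higher and 0 lower (median 0.93), so that their summed level was 8.66-fold that of the members, against 4.03-fold in AL 7R- ILC1s and at most 5.81-fold in the other groups. mRNAs from mitochondrial DNA had 8 of 12 higher, both mitochondrial ribosomal RNAs were lower (mt-Rnr1 -1.71 ± 0.29, mt-Rnr2 -1.25 ± 0.22), and assembly factors had 2 of 24 higher and 9 lower. Translation factors had 2 of 16 lower, OXPHOS subunits 16 of 82 higher and 4 lower, and tRNA synthetases 2 of 20 in each direction. Of the regulators Ppargc1a, the coactivator PGC-1alpha, was higher (5.05 ± 0.63) at 13.99 ± 3.4 CPM in SG G1-ILCs and 0.4 ± 0.4 CPM in AL 7R- ILC1s, and the mitochondrial RNA polymerase gene Polrmt lower (-1.10 ± 0.27). Myeloid markers were higher in 5 of 7 genes (sums 520.9 to 709.5 CPM in SG G1-ILCs, 10.7 to 28.9 CPM in AL 7R- ILC1s, S100a8 and S100a9 at 0 in SG G1-ILCs), and epithelial markers in 1 of 3, with 1 lower (814 to 949 CPM, against 74.8 to 115.8 CPM). T cell markers were lower in 6 of 10 and higher in 1 (543.5 to 660.2 CPM, against 3072 to 3694 CPM), and NK markers higher in 3 of 5 (against 41.0 to 62.5 CPM in AL 7R- ILC1s). Their part was not tested.

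**Figure D5:**
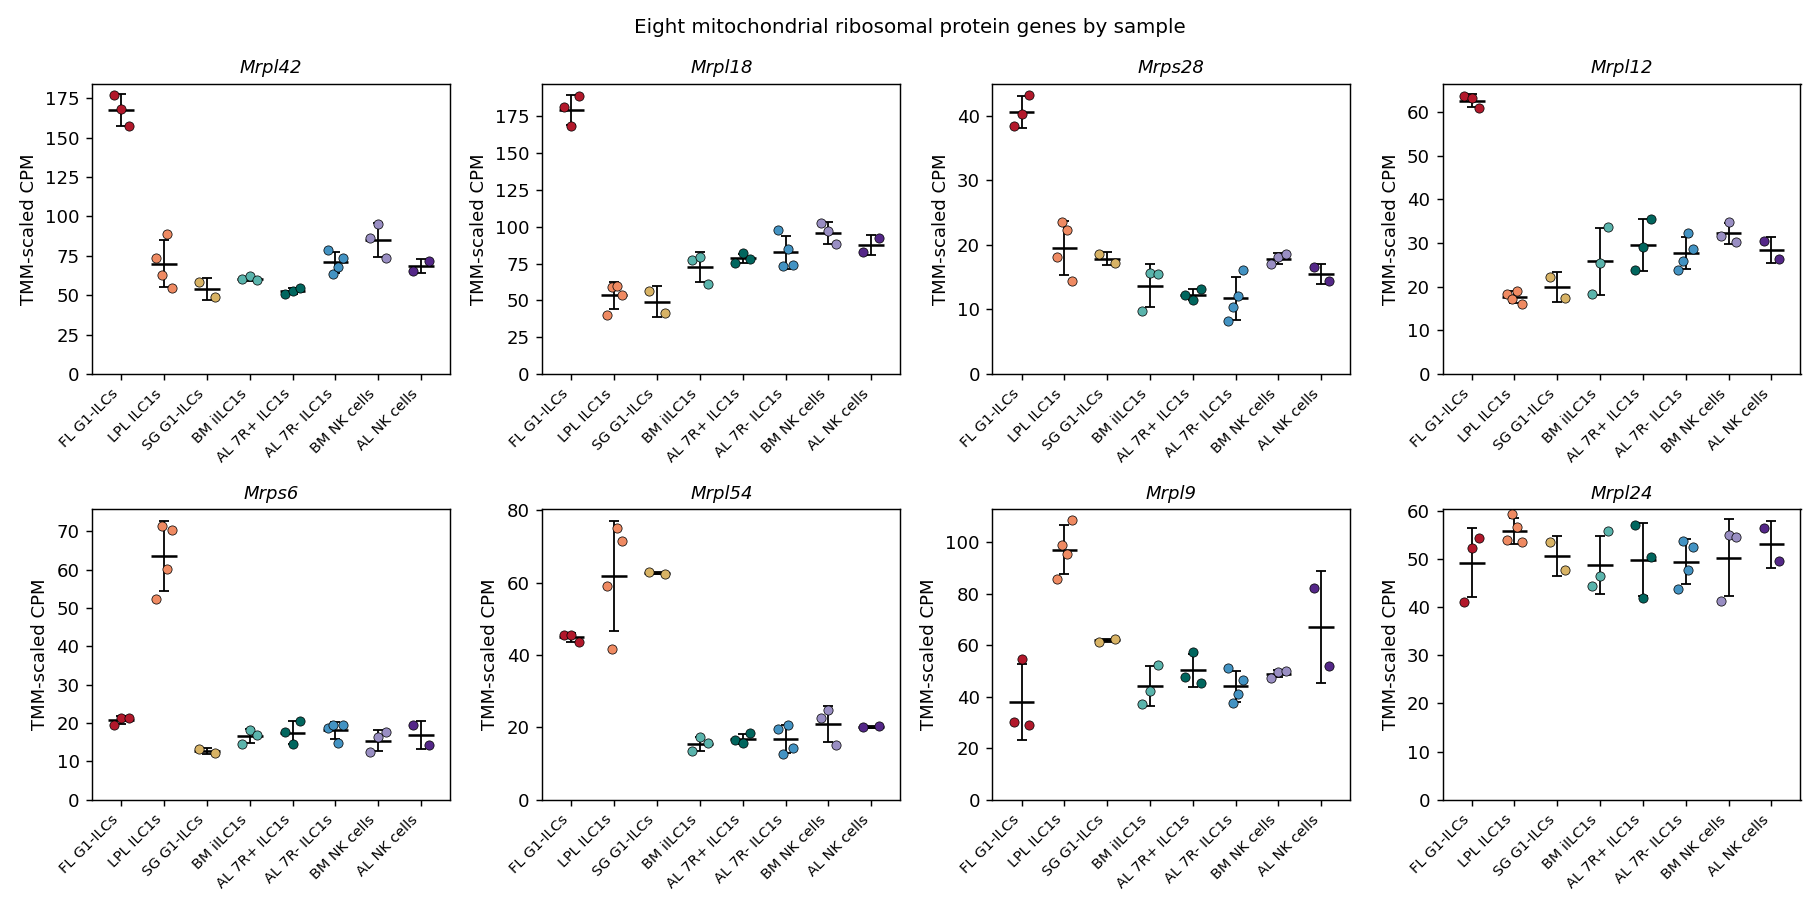
Levels of 8 members by group on the CPM scale (TMM), with points for samples, a line for the group mean and bars for the SD. Mrpl42, Mrpl18, Mrps28 and Mrpl12 are highest in FL G1-ILCs, Mrps6 and Mrpl9 in LPL ILC1s, Mrpl54 is high in FL G1-ILCs, LPL ILC1s and SG G1-ILCs, and Mrpl24 is near 50 CPM throughout.

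Among the cells of adult liver and bone marrow the members differed little. In AL 7R- ILC1s against AL NK cells, 6 members were higher and 1 was lower, against 9.94% and 10.5% of all genes. The higher members were Mrpl27 (0.84), Mrps11 (0.73), Mrpl41 (0.73), Mrpl52 (0.57), Mrpl51 (0.54) and Mrps26 (0.44), and the lower was Mrpl9 (-0.62). Mrpl27 had 31.1, 32.4, 36.8 and 29.1 CPM in AL 7R- ILC1s, against 20.7 and 15.3 CPM in AL NK cells. The count of 7 fell to 4 without AL 7R- ILC1s replicate 3, to 2 without AL NK cells replicate 1 and to 1 without AL NK cells replicate 2. Both mitochondrial ribosomal RNAs were higher in AL 7R- ILC1s, and Dap3, a GTP-binding protein of the small subunit, was lower (-0.82 ± 0.17).

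In AL 7R+ ILC1s against AL NK cells, 1 member was higher (Mrpl46, 0.77 ± 0.21, adjusted p = 0.012) and 1 lower (Mrpl4, -0.42 ± 0.13, adjusted p = 0.021), against 7.96% and 7.61% of all genes. No member was called without AL 7R+ ILC1s replicate 3 or without AL NK cells replicate 1, and 1 without AL 7R+ ILC1s replicate 2 or AL NK cells replicate 2. Mrpl4 had 107, 102 and 102 CPM in AL 7R+ ILC1s and 141 and 137 CPM in AL NK cells. It was equally low in BM iILC1s, at 105, 100 and 102 CPM. The BM NK cells, at 114.9, 130.5 and 95.7 CPM, overlapped these samples.

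In AL 7R+ ILC1s against AL 7R- ILC1s, 0 members were higher and 1 lower, against 3.06% and 2.22% of all genes. The 1 was Mrpl41 (-0.61 ± 0.17, adjusted p = 0.036), with 43.5, 35.3 and 39.2 CPM in AL 7R+ ILC1s and 54.7, 54.6, 75.5 and 55 CPM in AL 7R- ILC1s, and the call was lost without AL 7R- ILC1s replicate 3 or without any one of the 3 AL 7R+ ILC1s replicates. A further member was called without AL 7R- ILC1s replicate 4. Without adjustment 7 members had a p under 0.05, for which the share of all genes is not given.

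In BM iILC1s against BM NK cells, 0 members were higher and 1 lower, against 6.55% and 5.55% of all genes. This was Mrpl42, with 60.5, 61.9 and 59.3 CPM in BM iILC1s and 86.5, 94.9 and 73.3 CPM in BM NK cells (-0.49 ± 0.14, adjusted p = 0.024). The call did not hold without any one of the libraries except BM NK cells replicate 3. The summed level was 0.91-fold, and all 21 cell cycle genes were lower in BM iILC1s. Markers of other cells were higher in BM iILC1s: myeloid in 5 of 7 genes (124.6 to 1471 CPM, against 7.84 to 192.7 CPM in BM NK cells), T cell in 9 of 10 (1407 to 1780 CPM, against 588.6 to 688.5 CPM) and erythroid in 4 of 7 (9.04 to 201 CPM, against 1.33 to 3.36 CPM). Their part was not tested.

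In BM iILC1s against AL 7R+ ILC1s edgeR called 0 members in either direction (4.23% and 3.84% of all genes), with 1 member at an unadjusted p under 0.05, and DESeq2 called 0. In BM NK cells against AL NK cells edgeR called 0 (1.01% and 1.57% of all genes), with 6 at an unadjusted p under 0.05. DESeq2 called 1. Of the 77 members, 59 had a positive log2 fold change (median 0.16). For this and for the counts at an unadjusted p the share of all genes is not given, so no lean is read from them. The BM NK cells also had cell cycle sums of 2747, 3575 and 1546 CPM with member sums of 3366, 3529 and 3182 CPM, in the same order over the 3 samples, against cell cycle sums of 1205 and 1232 CPM and member sums of 3157 and 3005 CPM in AL NK cells. The part of cycling was not tested. The difference between ILC1s and NK cells was not shown to differ between marrow (BM iILC1s against BM NK cells) and liver (AL 7R+ ILC1s against AL NK cells), since edgeR called 0 members in that interaction (3.09% of all genes), 2 had an unadjusted p under 0.05, and DESeq2 called 0.

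Transcript length was read beside these changes. In LPL ILC1s against AL 7R+ ILC1s, the higher members had a median transcript of 918 bases and the lower members one of 1320, and the rank correlation of the log2 fold change with length was -0.23 over the 77 members and -0.07 over 11828 protein-coding genes. In FL G1-ILCs against AL 7R- ILC1s it was -0.04 over the members and -0.15 over all, and in SG G1-ILCs against AL 7R- ILC1s -0.26 and -0.03, where the lower members had a median transcript of 2100 bases. It ran the other way in BM iILC1s, at 0.34 over the members and 0.09 over all genes against BM NK cells, and at 0.23 and 0.00 against AL 7R+ ILC1s. These are correlations across genes of the same libraries and are given as descriptions.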

How the data were processed

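RNA of sorted cells was amplified with the SMART-seq HT kit and sequenced in 25 libraries. Per the submitters' processing notes, the authors used fastp 0.23.0 for trimming and HISAT2 2.1.0 for alignment to mm10, and made the deposited table of whole-number read counts per gene with featureCounts (Subread 1.6.5). Its annotation release, strand setting and treatment of multi-mapping reads are not given in the sources used here, so overlapping genes and pseudogene copies may share counts. Identifiers were named from GENCODE M21 (GRCm38), and the 849 that did not match held 0.104% of counts and stayed out of the member list.

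The counts were fitted over all 8 groups in edgeR 4.0.16 (R 4.3.3): TMM, filterByExpr with a minimum count of 10, quasi-likelihood tests and Benjamini-Hochberg adjustment over all 14123 genes tested. The script was tested on simulated data. The study calls the libraries biological replicates but does not say that they come from separate animals, so p-values measure only the spread between these samples. Precision is limited by depths of 2302643 to 7995906 counts.

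Members and lists were chosen with earlier results of these data known. Named in the text are, per comparison, up to 5 members per direction with the largest change among those called and the member with the largest p, the 10 with the smallest p over the 8 groups, the 3 highest and lowest per kb, members that failed the filter, and members fixed by role. Others were named after their values were seen. Alternatives were DESeq2 1.42.0, RLE factors, other filters, a fold threshold, the replicate number as a block, all 25 libraries, 6 groups only, plain totals, and each library left out.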

Additional observations from a re-analysis of the deposited data

Results flagged for a closer look

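In groups of 4 samples, 88 sets of member levels were examined for 1 sample far from the other 3, and 3 were picked out. The sets share libraries and many hold members named for their values, so this count is not set against chance. Mrpl41 had 75.5 CPM in AL 7R- ILC1s replicate 3, against 54.6 to 55.0 CPM in the other 3 samples of that group. Mrpl4 had 106.8 CPM in AL 7R- ILC1s replicate 4, against 135.4 to 138.3 CPM in the other 3. Mrpl53 had 0.287 CPM in LPL ILC1s replicate 2, against 0 CPM in the other 3, which is a single count.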

How the results depend on the processing

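No called fold change of a named member reversed its direction under the alternatives run on single members, which do not include plain library totals. Named members that were not called were not examined for a change of direction. A log2 fold change over 1 in size, added to the adjusted p, left 12 members in FL G1-ILCs against AL 7R- ILC1s, 23 in FL G1-ILCs against AL NK cells, 6 in LPL ILC1s against AL 7R+ ILC1s, 3 in SG G1-ILCs against AL 7R- ILC1s and 0 in each of AL 7R- ILC1s against AL NK cells, AL 7R+ ILC1s against AL NK cells, AL 7R+ ILC1s against AL 7R- ILC1s and BM iILC1s against BM NK cells. The share of all genes passing this threshold was not computed, so these counts are not set against a background. With no filter on low counts, 7 members were called in SG G1-ILCs against AL 7R- ILC1s, 2 in AL 7R- ILC1s against AL NK cells and 0 in the other 3 of those small comparisons. In AL 7R+ ILC1s against AL 7R- ILC1s, DESeq2 called 3 and the 6 groups of liver and marrow alone 2. Those 6 groups gave 2 in BM iILC1s against BM NK cells and 1 in BM NK cells against AL NK cells, where DESeq2 also gave 1. The cause was not tested. For the other alternatives of this section the share of all genes is not given either.

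Replicate numbers did not pair the samples: deviations from the group means correlated at -0.006 on average between samples with the same number (-0.09 to 0.04 over 69 pairs), and 3 of 24 samples correlated best with their own number. With the replicate block, 3 members were called in AL 7R- ILC1s against AL NK cells and 2 in AL 7R+ ILC1s against AL 7R- ILC1s, and the other counts stayed within 1.5 times.

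Leaving out 1 library gave 47 to 56 members called in FL G1-ILCs against AL 7R- ILC1s, 36 to 50 in FL G1-ILCs against AL NK cells, 28 to 33 in LPL ILC1s against AL 7R+ ILC1s, 5 to 14 in SG G1-ILCs against AL 7R- ILC1s, 1 to 5 in AL 7R- ILC1s against AL NK cells, 0 to 2 in AL 7R+ ILC1s against AL NK cells and in AL 7R+ ILC1s against AL 7R- ILC1s, 0 to 1 in BM iILC1s against BM NK cells, and 67 to 72 over the 8 groups. A lone SG or AL NK sample was then assumed to vary like the other groups.

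Plain library totals moved the summed level to 4966 CPM in FL G1-ILCs, 2589 CPM in LPL ILC1s and 3382 CPM in BM iILC1s. In the adult liver it was then 3321 CPM for AL 7R+ ILC1s, 3413 CPM for AL 7R- ILC1s and 3219 CPM for AL NK cells, and BM NK cells had 3663 CPM. RLE gave 4874 CPM and all 25 libraries 4993 CPM in FL G1-ILCs.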
